A study of Mus musculus with 12 samples.

Results

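The mitochondrial ribosomal proteins are the protein parts of the ribosome that works inside mitochondria. They were taken as every gene whose symbol in the array's annotation starts with Mrpl or Mrps followed by a number, with pseudogenes left out. Mrpl stands for the large subunit and Mrps for the small one. The annotation held 78 such symbols, of which 71 had a probeset that names 1 gene. Of these 71, 68 were bright enough to be tested, among 13308 tested genes of the 22180 that had a probeset of their own. Mrpl27, Mrps14 and Mrps36 fell below the filter on mean level, with mean log2 values of 5.15, 4.74 and 4.74. Mrpl30, Mrpl33, Mrpl41, Mrpl43, Mrpl44, Mrpl53 and Mrps6 shared their probesets with a second gene and were not analysed here.

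Mitochondria make the membrane-embedded core of the respiratory chain from their own small genome, and the mitochondrial ribosome translates those messages. Its RNAs come from the mitochondrial genome, while all of its proteins are encoded in the nucleus, made in the cytosol and imported. Many members have a counterpart in the bacterial ribosome and the others arose later in eukaryotes. Mrps30 and Mrps18a carry small-subunit names but sit in the large subunit, and are counted there. Mrps36 is now known as a part of the oxoglutarate dehydrogenase complex. ERRα is the product of Esrra, a nuclear receptor of the estrogen-related family that works with the coactivator PGC-1α on nuclear genes of mitochondrial energy metabolism, in muscle among other tissues.

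The samples were gastrocnemius, a calf muscle, of FVB mice aged 2 to 3 months that were labelled male. The 4 groups were wild-type and ERRα-null mice that had not run, called sedentary here, and both genotypes sampled 2 h after a treadmill run that ended in exhaustion. Each group has 3 arrays. The labels do not say which part of Esrra is missing or from which cells. They call the 3 arrays of a group biological replicates. Values are log2 expression values from Affymetrix whole-transcript arrays, normalised by the authors with RMA, which gives all arrays a common distribution, so each difference is relative to the bulk of transcripts. Since probes differ in brightness, levels are compared between arrays and never between genes. Tissue RNA was measured, so fewer cells of a type and less RNA per cell cannot be told apart.

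Groups follow the sample titles; a second label, the source name, gives the other exercise state for the sedentary ERRα-null and the exercised wild-type arrays. Esrra lay between 7.41 and 7.63 on the wild-type arrays and between 6.55 and 6.89 on the ERRα-null arrays. The mean of 9 skeletal muscle markers lay between 12.50 and 12.72 on all 12 arrays, and correlations between arrays ran from 0.970 to 0.987. Transcripts of other tissues differed within groups. Alb, the liver's serum albumin, ran from 6.46 to 12.82 in sedentary wild type, 6.24 to 11.83 in sedentary ERRα-null, 7.22 to 10.64 in exercised wild type and 6.99 to 9.68 in exercised ERRα-null muscle, and was highest on sedentary wild type replicate 1. The brown fat gene Ucp1 stood at 10.82 and 10.93 on 2 sedentary wild-type arrays (replicates 2 and 3), at 9.43 and 7.76 on 2 sedentary ERRα-null arrays (replicates 3 and 1) and no higher than 6.24 on the remaining 8. The seminal vesicle gene Svs5 reached 12.98 on the array of sedentary ERRα-null replicate 1, where no other array exceeded 4.49. Xist of the female X chromosome was at 7.82 to 7.90 in exercised wild type replicate 3 and exercised ERRα-null replicates 2 and 3. It was at most 4.30 on the others, although all mice are labelled male. Eif2s3y of the Y chromosome was at 4.97 to 5.2 on these 3 arrays and at 7.83 to 8.45 on the others. All sedentary arrays had low Xist and high Eif2s3y, so the comparisons of exercised with sedentary arrays are in part mixed with this profile.

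Averaged over both exercise states, 60 of the 68 tested members were lower without ERRα, and the differences were small. The median over the members was −0.11 log2, against 0.00 over all tested genes, of which 49.8% lay below 0. Single members ran from −0.44 (Mrpl34) to 0.10 (Mrpl52). Mrpl34, Mrpl18, Mrpl12 and Mrpl16, all of the large subunit, passed the test at an adjusted p under 0.05 in limma, where 1.43% of all tested genes passed and 0.999% passed as lower. No member passed as higher, where 0.428% of genes did. At an unadjusted p under 0.05, 24 members (35.3%) were lower, against 7.19% of all genes, and none was higher, against 5.18%. In Mrpl34, Mrpl18, Mrpl12 and Mrpl4 (5.88%) all 6 ERRα-null arrays lay below all 6 wild-type arrays, against 1.01% of all genes.

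**Figure D1:**
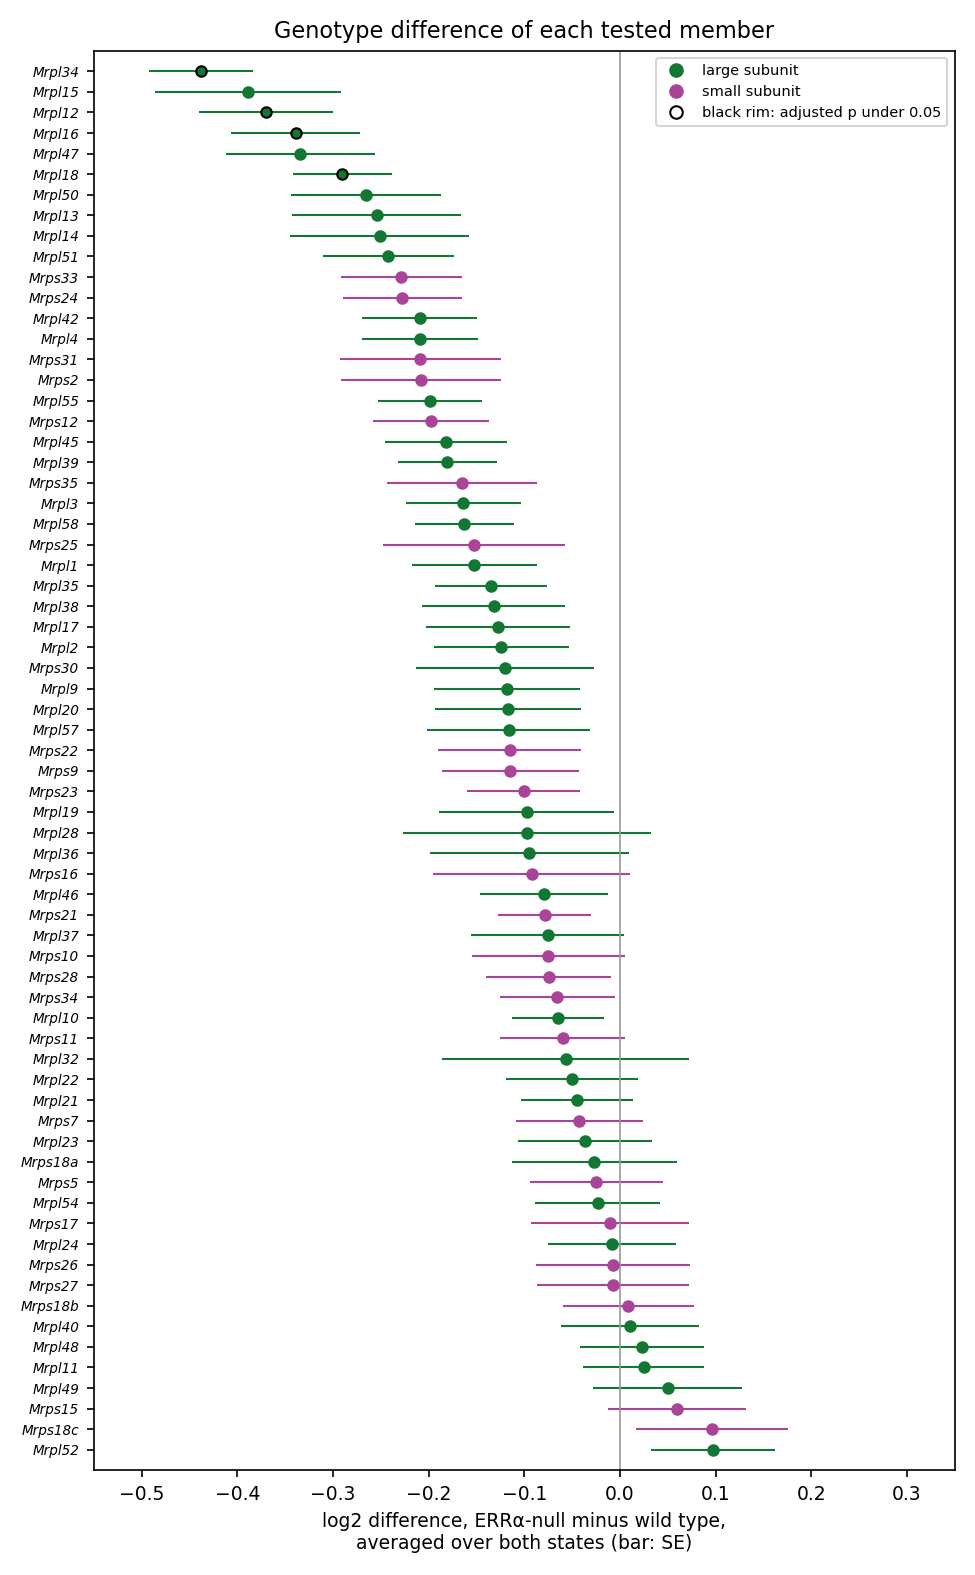
Genotype difference of the 68 tested members, ERRα-null minus wild type, averaged over both exercise states, on the log2 scale, with the standard error as the bar. Colours give the subunit and a black rim marks the 4 members with an adjusted p under 0.05; 60 points lie left of 0.

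Mrpl34, a small protein of the large subunit with a bacterial counterpart, had the smallest p of the members. Its log2 level was 8.21, 8.35 and 8.14 in sedentary wild type and 7.68, 7.74 and 7.66 in sedentary ERRα-null muscle. After exercise it was 8.20, 8.17 and 8.29 in wild type and 7.84, 7.86 and 7.95 in ERRα-null muscle. Each of the 6 ERRα-null arrays lay below each of the 6 wild-type arrays. The averaged difference was −0.44 ± 0.05 (SE), or 0.738-fold, with an adjusted p of 0.00337 in limma. At rest it was −0.54 ± 0.08, or 0.689-fold, which passed (adjusted p = 0.0277 in limma), and after exercise −0.34 ± 0.08, which did not (adjusted p = 0.0854). The call at rest was lost with a block for the replicate number, at −0.54 (adjusted p = 0.0592 in limma). It was lost at the same −0.54 with the 6 sedentary arrays alone (adjusted p = 0.223). These fits called 0.0225% and 0.0301% of all genes, against 0.0827% in the main fit. The call was also lost without any 1 of 7 arrays, with differences from −0.56 to −0.48. These were sedentary wild type replicate 1 or 2, any sedentary ERRα-null replicate, and exercised ERRα-null replicate 2 or 3. Those 7 fits called 0.00751% to 0.0526% of all genes.

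Mrpl18 is the counterpart of bacterial L18, a protein of the central protuberance of the large subunit. It was at 9.67, 9.51 and 9.44 in sedentary wild type, 9.15, 9.29 and 9.27 in sedentary ERRα-null, 9.48, 9.47 and 9.54 in exercised wild type and 9.22, 9.26 and 9.18 in exercised ERRα-null muscle. The genotypes did not overlap, and in wild-type muscle the sedentary arrays were the more scattered ones. The averaged difference was −0.29 ± 0.05, or 0.818-fold (adjusted p = 0.0191 in limma). It was −0.30 ± 0.07 at rest and −0.28 ± 0.07 after exercise.

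Mrpl12 is the counterpart of bacterial L7/L12, which forms the stalk that recruits translation factors, and the human protein has also been found to bind the mitochondrial RNA polymerase. It was at 8.17, 8.17 and 8.03 in sedentary wild type, 7.54, 7.92 and 7.83 in sedentary ERRα-null, 8.24, 8.16 and 8.14 in exercised wild type and 7.72, 7.87 and 7.82 in exercised ERRα-null muscle. No ERRα-null array reached the lowest wild-type array, and sedentary ERRα-null replicate 1 was the lowest of all. The averaged difference was −0.37 ± 0.07, or 0.774-fold (adjusted p = 0.0240 in limma). A second, dimmer probeset of Mrpl12 gave −0.10, and with the mean of both probesets the call was lost (−0.24, adjusted p = 0.118).

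Mrpl16, the counterpart of bacterial L16, lies near the site where peptide bonds are formed. It was at 8.59, 8.64 and 8.59 in sedentary wild type, 8.08, 8.36 and 8.47 in sedentary ERRα-null, 8.53, 8.44 and 8.54 in exercised wild type and 8.10, 8.05 and 8.22 in exercised ERRα-null muscle. The genotypes did not overlap within either state, but sedentary ERRα-null replicate 3 lay above exercised wild type replicate 2. The averaged difference was −0.34 ± 0.07, or 0.791-fold (adjusted p = 0.0308 in limma).

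**Figure D2:**
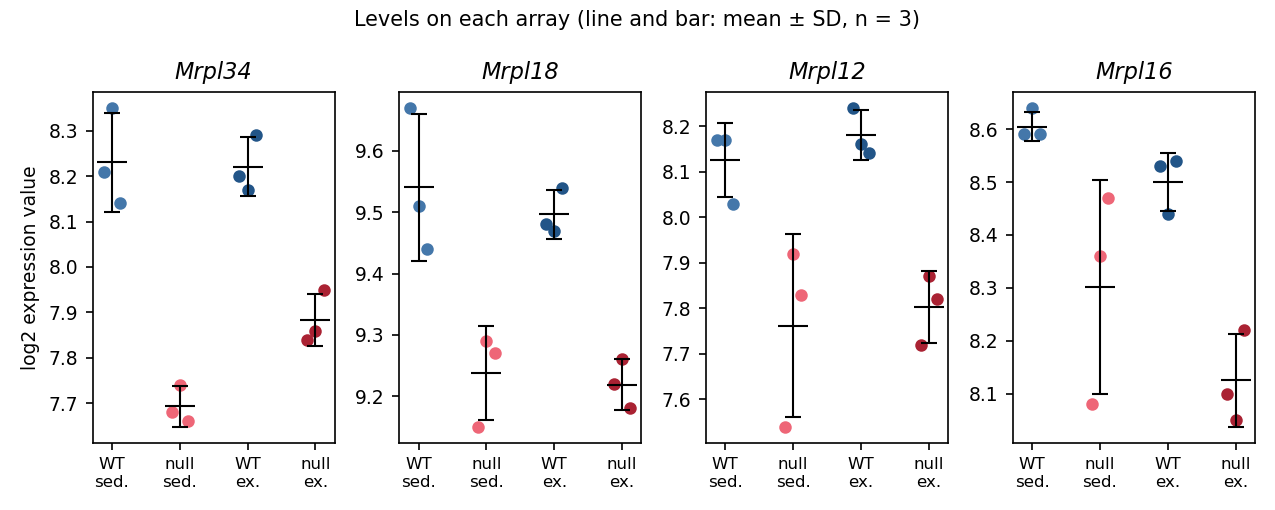
Log2 expression values of Mrpl34, Mrpl18, Mrpl12 and Mrpl16 on each of the 12 arrays (points), with the mean and SD of each group of 3 arrays (line and bar), for sedentary (sed.) and exercised (ex.) wild-type (WT) and ERRα-null mice. In each panel both ERRα-null groups lie below both wild-type groups in mean, and each panel has its own axis, which does not start at 0.

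Some averaged calls rested on single arrays. Mrpl34 passed whichever 1 of the 12 arrays was left out. It alone passed without sedentary wild type replicate 1 or 2 or without exercised ERRα-null replicate 3, and without exercised wild type or ERRα-null replicate 1 Mrpl18 passed beside it. Mrpl16 also failed without sedentary ERRα-null replicate 2, exercised wild type replicate 3 or exercised ERRα-null replicate 2. With any 1 array left out Mrpl18 stayed between −0.31 and −0.26, Mrpl12 between −0.41 and −0.31 and Mrpl16 between −0.38 and −0.28. No member passed without the 3 arrays of highest Ucp1 or without the 3 of high Xist, where Mrpl34 was at −0.42 (adjusted p = 0.0509) and −0.44 (adjusted p = 0.0925). Those fits called 47 and 6 genes in all. The first of those fits kept 1 sedentary wild-type array, and the second kept 1 exercised ERRα-null array. With the mean of 6 brown fat markers as a covariate the 4 members passed. Sedentary wild type replicate 1, without which 3 of the 4 calls were lost, was the array of highest Alb, at 12.82. The same 3 calls were lost without sedentary wild type replicate 2 (Alb 9.97) or exercised ERRα-null replicate 3 (Alb 9.68). All 6 liver markers lay below wild type in the averaged comparison, with a median of −0.47 and none at an unadjusted p under 0.05. The part of liver transcripts in these calls was not tested.

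Single markers of other cell and fibre types differed between the genotypes as well. Ighm, the heavy chain of immunoglobulin M made by B cells, was at 11.31 to 12.11 on the 6 wild-type arrays and at 8.13 to 10.73 on the 6 ERRα-null arrays, so that the genotypes did not overlap. It passed as lower in the averaged comparison (−1.99 ± 0.27, adjusted p = 0.00461 in limma) and after exercise (−2.58 ± 0.38, adjusted p = 0.0227), and was at −1.40 ± 0.38 at rest (adjusted p = 0.253). The B cell markers Cd79a (−0.23 ± 0.65) and Cd79b (−0.12 ± 0.43) did not pass in the averaged comparison, and Ms4a1 fell below the filter on mean level. The mean of the 4 B cell markers ran from 6.38 to 8.18 in sedentary wild type, 6.01 to 8.68 in sedentary ERRα-null, 6.23 to 6.57 in exercised wild type and 5.56 to 5.90 in exercised ERRα-null muscle. Myh7, the myosin of slow fibres and 1 of the 9 muscle markers, was at 10.72, 9.81 and 10.30 in sedentary wild type and at 10.78, 11.08 and 11.29 in sedentary ERRα-null muscle, without overlap. Its difference was 0.77 ± 0.26 at rest (unadjusted p = 0.0114, adjusted p = 0.409 in limma), 0.29 ± 0.26 after exercise and 0.53 ± 0.18 averaged (unadjusted p = 0.0133, adjusted p = 0.225). The myosins of fast fibres Myh2, Myh1 and Myh4 were at −0.02, −0.09 and −0.00 in the averaged comparison. Elovl3, a fatty acid elongase of brown fat, was lower on all sedentary ERRα-null arrays than on the sedentary wild-type ones (−1.74 ± 0.37, adjusted p = 0.132 in limma). The part of these cell and fibre types in the difference of the members was not tested.

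The promoters of these 4 genes are shown because their transcripts moved in the same direction. Each is the 250 bases before the annotated start from RefSeq, build GRCm38.p6, written 5′ to 3′ on the strand of the gene. Capitals mark the ETS motif CCGGAAG, and no other motif searched was found in these stretches.
Mrpl34 (chr8:71464676-71464925, plus strand): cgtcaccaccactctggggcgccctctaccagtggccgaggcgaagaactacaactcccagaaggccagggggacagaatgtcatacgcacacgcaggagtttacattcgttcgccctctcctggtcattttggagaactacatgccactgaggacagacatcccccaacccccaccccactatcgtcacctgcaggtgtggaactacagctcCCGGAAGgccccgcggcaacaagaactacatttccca
Mrpl18 (chr17:12916092-12916341, minus strand): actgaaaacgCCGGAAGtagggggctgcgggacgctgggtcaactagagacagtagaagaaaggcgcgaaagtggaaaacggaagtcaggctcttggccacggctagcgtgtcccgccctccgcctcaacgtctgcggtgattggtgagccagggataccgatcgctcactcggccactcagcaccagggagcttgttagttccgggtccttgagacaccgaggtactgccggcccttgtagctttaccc
Mrpl12 (chr11:120484387-120484636, plus strand): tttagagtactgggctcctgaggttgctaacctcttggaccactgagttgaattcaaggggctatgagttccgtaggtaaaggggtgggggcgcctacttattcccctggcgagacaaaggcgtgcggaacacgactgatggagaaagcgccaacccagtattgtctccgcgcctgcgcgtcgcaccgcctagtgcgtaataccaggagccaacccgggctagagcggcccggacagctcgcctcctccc
Mrpl16 (chr19:11770165-11770414, plus strand): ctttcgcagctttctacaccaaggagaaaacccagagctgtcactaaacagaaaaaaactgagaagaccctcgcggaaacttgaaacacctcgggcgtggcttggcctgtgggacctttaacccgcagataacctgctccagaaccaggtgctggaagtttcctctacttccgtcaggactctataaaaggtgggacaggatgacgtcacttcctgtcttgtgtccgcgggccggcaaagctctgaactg
The ETS motif began 37 bases before the start of Mrpl34 and 240 bases before that of Mrpl18. The stretches of Mrpl12 and Mrpl16 held none of the 5 motifs searched.

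Windows of 300 bases, 250 before to 50 after the start, were available for 62 of the 71 members and searched on both strands for 5 short motifs. The receptor site AAGGTCA, which ERRα and related receptors bind, occurred in the windows of 4 members (6.45%), against 3.87% of 10407 tested genes and 4.72% of all 32851 windows. Its longer form TCAAGGTCA, which contains it, occurred in none, against 0.288% of tested genes and 0.423% of all windows. The 4 members with the receptor site were Mrpl12, Mrpl36, Mrps15 and Mrps21. The stretches of 30 bases around each are shown with the receptor site, or its reverse complement, in capitals.
Mrpl12 (chr11:120484657-120484686, plus strand): ttagagccgcgtgTGACCTTcccgcttgcg
Mrpl36 (chr13:73330959-73330988, plus strand): gtcatcccacgTGACCTTacgccatctttc
Mrps15 (chr4:126046792-126046821, plus strand): aggccggatgcAAGGTCAataggtgacatt
Mrps21 (chr3:95871559-95871588, minus strand): cgaaccttcgcAAGGTCAgacggtaagcgg
Mrps21 (chr3:95871671-95871700, minus strand): acggatcgggcTGACCTTctcgcagacccg
In Mrpl12 the receptor site lay within the 50 bases after the start, and in the other 3 genes it lay before the start. Of these 4 genes only Mrpl12 passed the test. Mrpl36 was at −0.09, Mrps21 at −0.08 and Mrps15 at 0.06 in the averaged comparison. The median averaged difference was −0.09 over the 4 members with the receptor site and −0.12 over the 55 tested members whose window lacked it.

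Motifs of other factors that act on nuclear genes of mitochondria were more frequent. The ETS motif CCGGAAG, which GABP (NRF2) and other ETS factors bind, was in 23 of 62 members (37.1%), against 17.7% of tested genes and 8.86% of all windows. The YY1 motif AAGATGGC was in 12 (19.4%), against 4.73% and 2.75%, and the NRF1 motif GCGCATGCG was in 7 (11.3%), against 3.64% and 1.75%. Members with and without these motifs had median differences of −0.10 and −0.12 for ETS, −0.07 and −0.12 for YY1 and −0.06 and −0.11 for NRF1. Member windows had a median GC content of 58.5%, against 60.3% for tested genes. A match is a run of letters and does not show that a factor binds there.

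Behind the 4 members that passed, 12 more lay over 0.2 below wild type in the averaged comparison. They were picked here by the size of that difference and did not pass the test. In the large subunit these were Mrpl15 (−0.39 ± 0.10), Mrpl47 (−0.33 ± 0.08), Mrpl50 (−0.27 ± 0.08), Mrpl13 (−0.25 ± 0.09), Mrpl14 (−0.25 ± 0.09), Mrpl51 (−0.24 ± 0.07), Mrpl42 (−0.21 ± 0.06) and Mrpl4 (−0.21 ± 0.06). Mrpl4 is the counterpart of bacterial L4, which lines the exit tunnel of the nascent chain, and Mrpl47 is that of bacterial L29 at the tunnel exit. In the small subunit they were Mrps33 (−0.23 ± 0.06), Mrps24 (−0.23 ± 0.06), Mrps31 (−0.21 ± 0.08) and Mrps2 (−0.21 ± 0.08). Mrps24 is the counterpart of bacterial S3, at the entry of the messenger RNA. Mrpl47 came closest to passing (adjusted p = 0.0621 in limma). Its second, dimmer probeset, at a mean log2 value of 5.37 against 6.63, gave −0.44. Mrpl47 passed without sedentary ERRα-null replicate 2 (−0.39), and Mrpl15 (−0.45) and Mrps33 (−0.27) passed without sedentary wild type replicate 3.

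Both subunits lay below wild type. Of the 44 tested members in the large subunit, 39 were lower, 19 of them at an unadjusted p under 0.05, with a median of −0.12. Of the 24 in the small subunit, 21 were lower, 5 of them at that p, with a median of −0.08. Among all tested genes, 49.8% were lower and 7.19% were lower at that p. The difference between the subunits was not tested. The SD of the differences over the 68 members was 0.11 log2, against a median standard error of 0.07 for a single member. Whether the members differ in the size of their difference was not tested. The 8 members at or above wild type were Mrpl52 (0.10 ± 0.07), Mrps18c (0.10 ± 0.08), Mrps15, Mrpl49, Mrpl11, Mrpl48, Mrpl40 and Mrps18b, the last at 0.01. Mrps18b and Mrps18c are 2 of the 3 mammalian proteins related to bacterial S18, and the third, Mrps18a, was at −0.03.

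In sedentary mice, 53 of the 68 members were lower in ERRα-null muscle, against 50.4% of all genes. Mrpl34 was the member that passed, where 0.0827% of tested genes passed and 0.0301% passed as lower. The median was −0.10. At an unadjusted p under 0.05, 15 members were lower (22.1%), against 4.16% of all genes, and none was higher, against 4.07%. In 16 members (23.5%) each ERRα-null array lay below each wild-type array, against 6.53% of all genes, and in no member was it the reverse, against 6.91%. After Mrpl34 the smallest p belonged to Mrpl18, Mrps24 (−0.33 ± 0.09), Mrpl12 (−0.36 ± 0.10) and Mrps12 (−0.30 ± 0.09), the last the counterpart of bacterial S12 in the decoding centre. Their adjusted p ran from 0.194 to 0.291. Mrps18c (0.20 ± 0.11) and Mrps26 (0.15 ± 0.11) were the members above wild type with the smallest p.

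The sedentary ERRα-null arrays did not lie together. After each gene was centred on its mean over the 12 arrays, the median of the members was −0.22 on replicate 1 and −0.01 and 0.04 on replicates 2 and 3. The sedentary wild-type arrays were at 0.08, 0.10 and −0.01. On sedentary ERRα-null replicate 1, 65 of 68 members lay below their own mean and 62 lay below both other arrays of the group. This is the array with Svs5 at 12.98, and it also had the highest Cd79a of B cells, at 8.95. Without it, the median at rest was −0.02 instead of −0.10, and 37 members were lower instead of 53, against 47.9% of all genes. No member passed, where 0.0301% of all genes did. Averaged over both exercise states, the median without this array was −0.07 instead of −0.11. Then 53 members were lower instead of 60, against 48.5% of all genes. The part of that array's other-tissue transcripts in the result was not tested. With the brown fat markers as a covariate the median at rest was −0.09, and without the 3 arrays of highest Ucp1 it was −0.16. The latter compared sedentary ERRα-null replicates 1 and 2 with 1 wild-type array, sedentary wild type replicate 1.

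**Figure D3:**
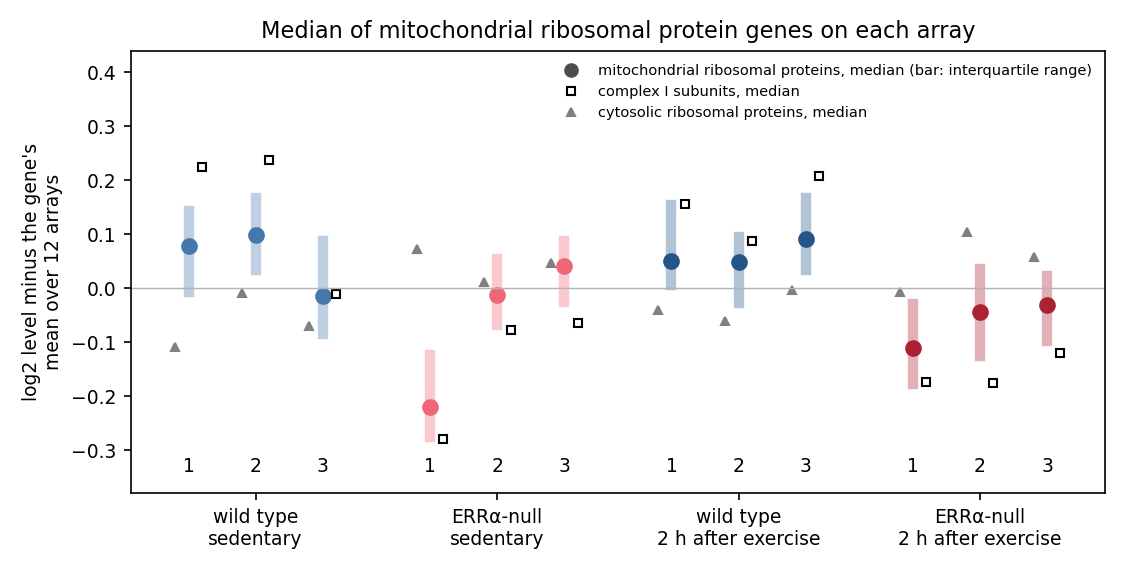
Median over the 68 tested members on each of the 12 arrays (circles) and their interquartile range (bars), as log2 level minus the gene's mean over the 12 arrays, with the medians of 32 complex I subunits (squares) and 55 cytosolic ribosomal proteins (triangles). Sedentary ERRα-null replicate 1 is the lowest for the members at −0.22, and the exercised genotypes do not overlap.

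After exercise, 61 of the 68 members were lower in ERRα-null muscle, against 49.6% of all genes, with a median of −0.12. None passed the test, where 0.376% of tested genes passed. The smallest adjusted p in limma was that of Mrpl34. At an unadjusted p under 0.05, 17 of the 68 members were lower, against 6.64% of all genes, and none was higher, against 3.75%. All ERRα-null arrays lay below all wild-type arrays in 27 members (39.7%), against 9.31% of all genes, and above them in Mrpl52 and Mrpl49, against 6.64%. The array medians of the members were 0.05, 0.05 and 0.09 in wild type and −0.11, −0.04 and −0.03 in ERRα-null muscle, so that the groups did not overlap.

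The members with the smallest p after exercise were Mrpl34, Mrpl16 (−0.37 ± 0.10), Mrpl12 (−0.38 ± 0.10), Mrpl51 (−0.37 ± 0.10) and Mrpl18, with adjusted p from 0.0854 to 0.141. Mrpl51 was at 8.38, 8.32 and 8.31 in exercised wild type and at 7.91, 7.98 and 8.01 in exercised ERRα-null muscle. At rest the same gene was at 8.08, 8.24 and 7.90 against 7.81, 7.96 and 8.10, where the genotypes overlapped. The greatest difference after exercise was that of Mrpl15 (−0.50 ± 0.14), which did not pass. Mrpl52 (0.13), Mrpl49 (0.15) and Mrps15 (0.15) were the members above wild type with the smallest p. Mrpl16 passed without sedentary ERRα-null replicate 1, at the same −0.37 and an adjusted p of 0.0462. Among the exercised arrays of low Xist the median was −0.17, from 1 ERRα-null against 2 wild-type arrays. There 59 of 68 members were lower, against 48.4% of all genes. Among the exercised arrays of high Xist the median was −0.13 with 56 lower, from 2 against 1, and there 56.1% of all genes were lower.

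The genotype comparisons at rest and after exercise share no array, but their tests share the estimate of spread. A total of 48 members (70.6%) were lower in both, against 28.8% of all tested genes, and Mrpl52 and Mrps18b were higher in both. At an unadjusted p under 0.05 in each, 8 of the 68 members were lower in both, against 1.74% of all genes. In 11 members (16.2%) the ERRα-null arrays lay below the wild-type arrays in both states without overlap, against 1.87% of all genes. Named for this after their values were seen, they were Mrpl4, Mrpl12, Mrpl16, Mrpl18, Mrpl34, Mrpl39, Mrpl42, Mrpl47, Mrpl58, Mrps12 and Mrps21. Mrpl58 is a peptidyl-tRNA hydrolase built into the large subunit, which frees chains from stalled ribosomes. Its averaged difference was −0.16 ± 0.05, that of Mrpl39 was −0.18 ± 0.05 and that of Mrps12 was −0.20 ± 0.06. Across the 68 members the differences in both states had a Pearson correlation of 0.48 and a Spearman correlation of 0.43. Across all genes these were 0.27 and 0.22. The members are measured on the same arrays and are not independent.

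**Figure D4:**
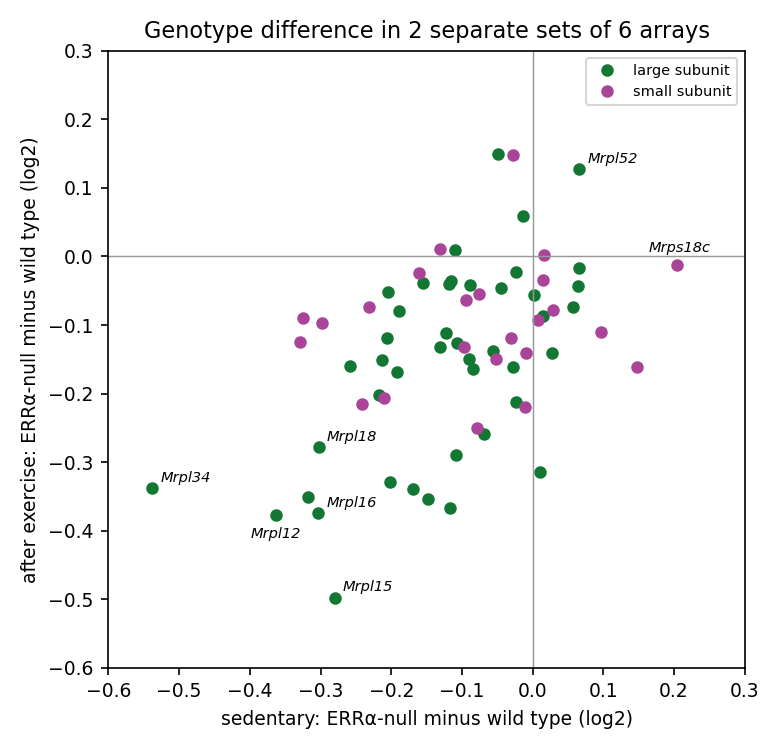
Genotype difference (ERRα-null minus wild type, log2) of the 68 tested members in sedentary mice (horizontal) and after exercise (vertical), coloured by subunit; each point is 1 gene. Points below and left of both zero lines, 48 of 68, were lower in both; Mrpl34, Mrpl12, Mrpl15, Mrpl16 and Mrpl18 lie farthest out among the labelled points there.

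Exercise left no member past the test in either genotype. In wild-type muscle, where 3.43% of all genes passed, 26 of 68 members were lower after exercise, against 52.3% of all genes, and the median was 0.04. In ERRα-null muscle, where 0.639% passed, 33 members were lower, against 52.8%, and the median was 0.01. Averaged over genotypes, where 6.57% passed, 30 were lower, against 52% of all genes, and the median was 0.01. The direction of these medians turned with single arrays. Without sedentary ERRα-null replicate 1, 55 members were lower after exercise in ERRα-null muscle, against 55.3% of all genes, with a median of −0.07, and 5 of them were lower at an unadjusted p under 0.05, against 8.15%. Averaged, 47 were then lower, against 54.2% of all genes, with a median of −0.03. Without sedentary wild type replicate 3, 38 were lower in wild type and 38 averaged, both with a median of −0.01. Of all genes, 52.4% and 52.1% were then lower. With each array centred on its median, 16 members were lower in wild type, 26 in ERRα-null muscle and 14 averaged, where 39.3%, 42.1% and 38.7% of all genes were lower. No member passed in any of these fits.

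With all arrays and at an unadjusted p under 0.05, wild type had Mrpl39 lower (−0.16 ± 0.07), against 8.61% of all genes, and Mrpl51 higher (0.26 ± 0.10), against 7.51%. ERRα-null muscle had no member lower, against 7.3%, and Mrpl34 higher (0.19 ± 0.08), against 5.79%. The average had Mrpl39 (−0.15 ± 0.05) and Mrpl10 (−0.12 ± 0.05) lower, against 12.9%, and no member higher, against 9.57%. Mrpl10 is the protein that anchors Mrpl12 in the stalk. The smallest adjusted p of a member in these comparisons was 0.113 in limma. The exercise differences in the separate genotypes share no array, but their tests share the estimate of spread. Each also shares a group with each genotype comparison.

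The difference between the genotypes in their response to exercise was tested directly, as the exercise difference in ERRα-null minus that in wild type. No member passed, and 0.00751% of all genes did. The median over the members was −0.02, with 39 of 68 below 0, against 50.6% of all genes. Mrpl1, of the L1 stalk of the large subunit, had the smallest p at −0.32 ± 0.13 (unadjusted p = 0.0287, adjusted p = 0.948 in limma). It was the one member under an unadjusted p of 0.05, where 3.2% of all genes were lower at that p, and Mrps26 followed at −0.31 ± 0.16. On the other side were Mrpl34 (0.20 ± 0.11) and Mrps12 (0.20 ± 0.12). The median standard error of a member here was 0.14, so that differences of that size were not detectable. Without sedentary ERRα-null replicate 1 the median was −0.10, with 51 members below 0 and 7 of them at an unadjusted p under 0.05, against 3.88% of all genes. It was 0.03 without sedentary wild type replicate 3, 0.04 without sedentary ERRα-null replicate 3 and 0.04, with 24 members below 0, without the 3 arrays of highest Ucp1.

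**Figure D5:**
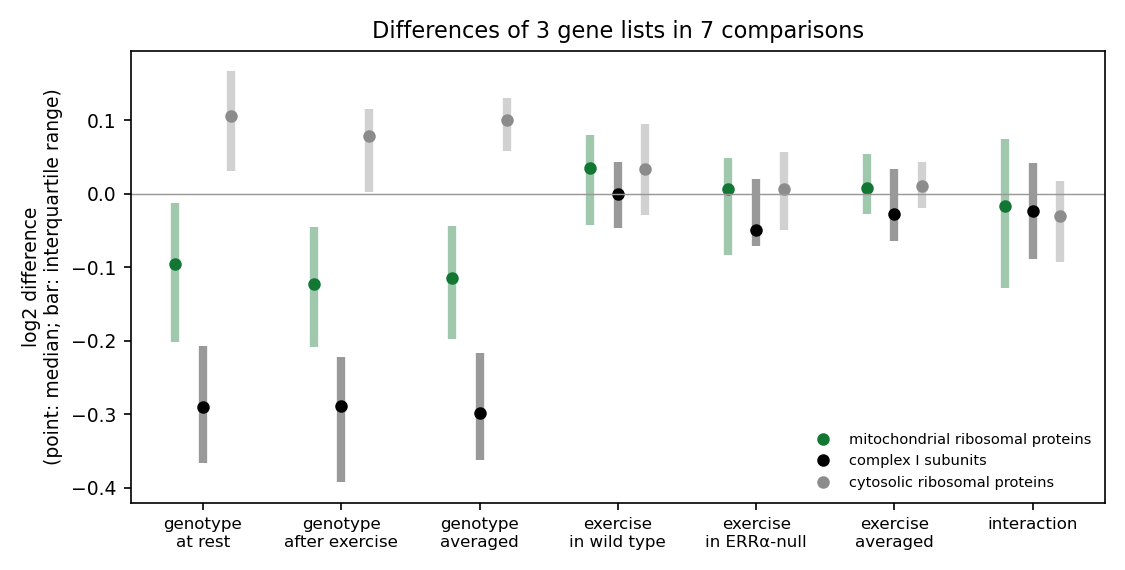
Median (point) and interquartile range (bar) of the log2 differences of the 68 mitochondrial ribosomal proteins, 32 complex I subunits and 55 cytosolic ribosomal proteins in 7 comparisons. In the 3 genotype comparisons (ERRα-null minus wild type) the mitochondrial ribosomal proteins lie between complex I, below, and the cytosolic ribosomal proteins, above 0; the other 4 medians of the members lie between −0.02 and 0.04.

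Other genes of mitochondrial translation were set beside the members. Of 24 tested translation and tRNA-modifying factors, 21 were lower in the averaged genotype comparison, with a median of −0.16. Among all tested genes, 49.8% were lower and 0.999% passed as lower. Mto1, which modifies mitochondrial tRNAs (−0.38 ± 0.07, adjusted p = 0.0258 in limma), and Gfm2, a factor of ribosome recycling (−0.34 ± 0.07, adjusted p = 0.0320), passed. Of 29 factors of ribosome assembly and ribosomal RNA modification 21 were lower, with a median of −0.07. Mrm1, a methyltransferase of the large ribosomal RNA, passed (−0.50 ± 0.08, adjusted p = 0.0119). At rest it was at 6.30, 6.13 and 6.04 in wild type against 5.49, 5.69 and 5.92 in ERRα-null muscle. After exercise it was at 6.53, 6.41 and 6.40 against 5.84, 5.86 and 6.0. The ERRα-null arrays lay below all wild-type arrays, as in 1.01% of all tested genes. Of 3 ribosomal proteins under other symbols, Dap3, a GTP-binding protein of the small subunit, passed (−0.24 ± 0.05, adjusted p = 0.0410), and Ptcd3 (−0.21 ± 0.07) and Gadd45gip1 (−0.06 ± 0.08) did not. None of these genes passed as higher, where 0.428% of all tested genes did. Fits that leave out arrays are not given here for these genes.

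The members lay between the gene lists they were compared with. All 32 tested structural subunits of complex I of the respiratory chain were lower in the averaged comparison, with a median of −0.30. Of them 15 passed, against 4 of the 68 members. Among all tested genes, 49.8% were lower and 0.999% passed as lower. Of 55 cytosolic ribosomal proteins, which build the ribosome outside mitochondria, 8 were lower and the median was 0.10. There 1 passed, as higher, where 0.428% of all tested genes did. These lists were set side by side and the differences between them were not tested. The median of complex I was −0.29 at rest and −0.29 after exercise, and that of the cytosolic ribosomal proteins was 0.11 and 0.08.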

How the data were processed

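The authors deposited 1 table of log2 expression values, 1 column per array; per the submitters' processing notes RMA values came from Affymetrix Expression Console and Transcriptome Analysis Console. Versions, options and build: not given in the sources used here. Arrays have no read depth, and their number limits the precision. The platform table gives 1 symbol to 23521 of 41345 probesets, several to 1814 and none to 16010. The brightest single-symbol probeset stood for a gene, and the dimmest 40% of genes (mean log2 value under 5.32) were left out of the tests. Where 9 members had several probesets, these disagreed in sign in 3 (Mrps16, Mrps17, Mrps18b), each by under 0.3.

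limma 3.58.1 in R 4.3.3 fitted the 4 group means to all 12 arrays (8 residual degrees of freedom, eBayes with an intensity trend), with two-sided tests and Benjamini-Hochberg adjustment over 13308 genes, in 7 comparisons. The model was tested on simulated data. Values after ± are standard errors. Members with an adjusted p under 0.05 are given on every array, and otherwise up to 5 members a direction with the smallest p are named, and others where the text says so. The members and lists were chosen with earlier results of these data known. Whether replicate numbers pair arrays is not known, and the main fit used no pairing. Between the exercised genotypes, same-numbered deviations from the group means correlated at 0.31, 0.21 and 0.17, against −0.23, −0.28 and 0.35 at rest. The greatest correlation, 0.63, was between unlike numbers, sedentary wild type replicate 1 and sedentary ERRα-null replicate 2. Alternatives changed the block, arrays, filter, probesets, centring, variance prior and brown fat markers, and left out arrays. Promoter windows come from RefSeq (GRCm38.p6), and gene symbols were read from the platform table. Python 3.11, pandas 2.3.3 and matplotlib 3.10.9 were used for motifs and plots.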

Additional observations from a re-analysis of the deposited data

How the results depend on the processing

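The genotype direction of the members' median was kept in every fit run, but its size was not. Over fits that leave out 1 array it ran from −0.16 to −0.017 at rest. After exercise it ran from −0.15 to −0.089, and averaged from −0.14 to −0.070. Over fits that leave out 1 array, 0 to 1 members were called at rest, where 0.00751% to 0.0827% of all genes were called. After exercise 0 to 1 members were called, against 0.015% to 0.789% of all genes, and averaged 1 to 6, against 0.594% to 1.89%. The interaction median ran over these fits from −0.10 to 0.037. The members' median for exercise ran over these fits from −0.011 to 0.057 in wild type, −0.068 to 0.049 in ERRα-null muscle and −0.028 to 0.037 averaged, so its direction was not kept. It also turned in wild type without the highest-Ucp1 arrays (−0.0078), in ERRα-null muscle and averaged without the high-Xist arrays (−0.024 and −0.0064) and with the brown fat covariate (−0.0073 and −0.0071). At rest 0 members were called with the replicate number as a block, with only the arrays compared, with both, without the 3 arrays of highest Ucp1 and without the 3 of high Xist. Averaged, 0 were called without either set of 3 arrays. The fits at rest with the block, with only the arrays compared and with both called 0.0225%, 0.0301% and 0.00751% of all genes. Leaving out the highest-Ucp1 arrays kept 1 sedentary wild-type array, and leaving out the high-Xist arrays kept 1 exercised ERRα-null array. The replicate block changed no other call of a member: averaged it called the same 4, and after exercise 0 (also on the exercised arrays alone). Members near 0 changed sign. Mrps18b turned with the mean of its probesets at rest (−0.0062), after exercise (−0.097) and averaged (−0.052), and without the highest-Ucp1 arrays at rest (−0.0061) and averaged (−0.0023). With 1 array left out it ran from −0.014 to 0.050 at rest, −0.090 to 0.085 after exercise and −0.037 to 0.050 averaged. Without the highest-Ucp1 arrays Mrpl52 was at −0.063 at rest, and Mrps18c at −0.015 at rest and −0.014 averaged. With 1 array left out Mrpl52 at rest ran from −0.048 to 0.13. Of 1642 values of named members under alternatives, 1583 kept direction and side of the threshold, 37 lost a call, 5 gained one and 17 changed sign; the causes were not tested. Small differences and 3 arrays a group limit what can be called.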
